A study of Mus musculus with 25 samples.

Results

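Frzb is a secreted Wnt antagonist, and 8 further genes of Wnt signalling are described with it: Sfrp1, Sfrp2, Dkk2, Dkk3, Wif1, Axin2, Lef1 and Wnt5a. These 9 genes, of 18193 measured, were followed through every probe set annotated to their symbol alone, 20 in all. They were chosen from the values of these same arrays, so their own differences are given as descriptions, with no p-value. The arrays measured RNA from whole lungs of female mice that had received bleomycin, a drug that injures the lung and is used to model pulmonary fibrosis, into the trachea at 1 mg/kg in 40 ul of saline on Day 0. Lungs came from wild-type mice (WT) and from mice titled FP-KO, which the series title ties to the prostaglandin F receptor FP, on Day 0, Day 7 and Day 14. There were 4 mice in every group except WT Day 14, which had 5. The titles do not say whether Day 0 lungs were taken before or after the instillation, there was no group given saline alone, and strain and age are not given in the sources used here.

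Wnt ligands bind a Frizzled receptor together with an Lrp co-receptor, which stabilises beta-catenin and lets it work with the nuclear factors Lef1 and the Tcf proteins. Secreted proteins limit this step. The Sfrp family (Frzb is also known as Sfrp3) and Wif1 bind Wnt ligands, while Dkk2 acts on the Lrp co-receptors. Axin2 is a target gene of beta-catenin whose product takes part in its destruction, and Wnt5a is a ligand best known for signalling that does not run through beta-catenin. In the lung the pathway is known for its part in alveolar repair and in the activation of fibroblasts.

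Each array was deposited with a trimmed mean of 500 intensity units, and array medians ran from 112.3 to 151.5 units. Differences are on the log2 scale after quantile normalization, with the standard error (SE) of a fit to all 25 arrays. Levels are the deposited intensities, which compare mice for a gene, not genes with each other. Ptgfr, the gene of the FP receptor, read 122.6 to 383.7 over the 13 WT lungs and 21.1 to 57.6 over the 12 FP-KO lungs, with no overlap, so the genotype labels held. The lung markers Sftpc, Scgb1a1 and Ager were at 18322 units or more in every lung. On Day 14 the arrays fell into 2 sets on the second principal component (16.9% of variance), WT mice No. 1 to 3 with FP-KO mice No. 1 and 2, and WT mice No. 4 and 5 with FP-KO mice No. 3 and 4. On the first component (42.0% of variance) FP-KO Day 14 mouse No. 2 lay at -28.9, among the Day 0 arrays, which ran from -35.0 to -24.8. The labels name no batch, and the main values of the 9 genes on Day 14 are therefore also given within each set, called the first and the second set in that order, and pathway genes whose Day 14 call did not hold within a set are named with their values. Nothing in the labels says how the mice of a group were housed or when they were processed, so the spread between mice may hold technical parts.

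**Figure D1:**
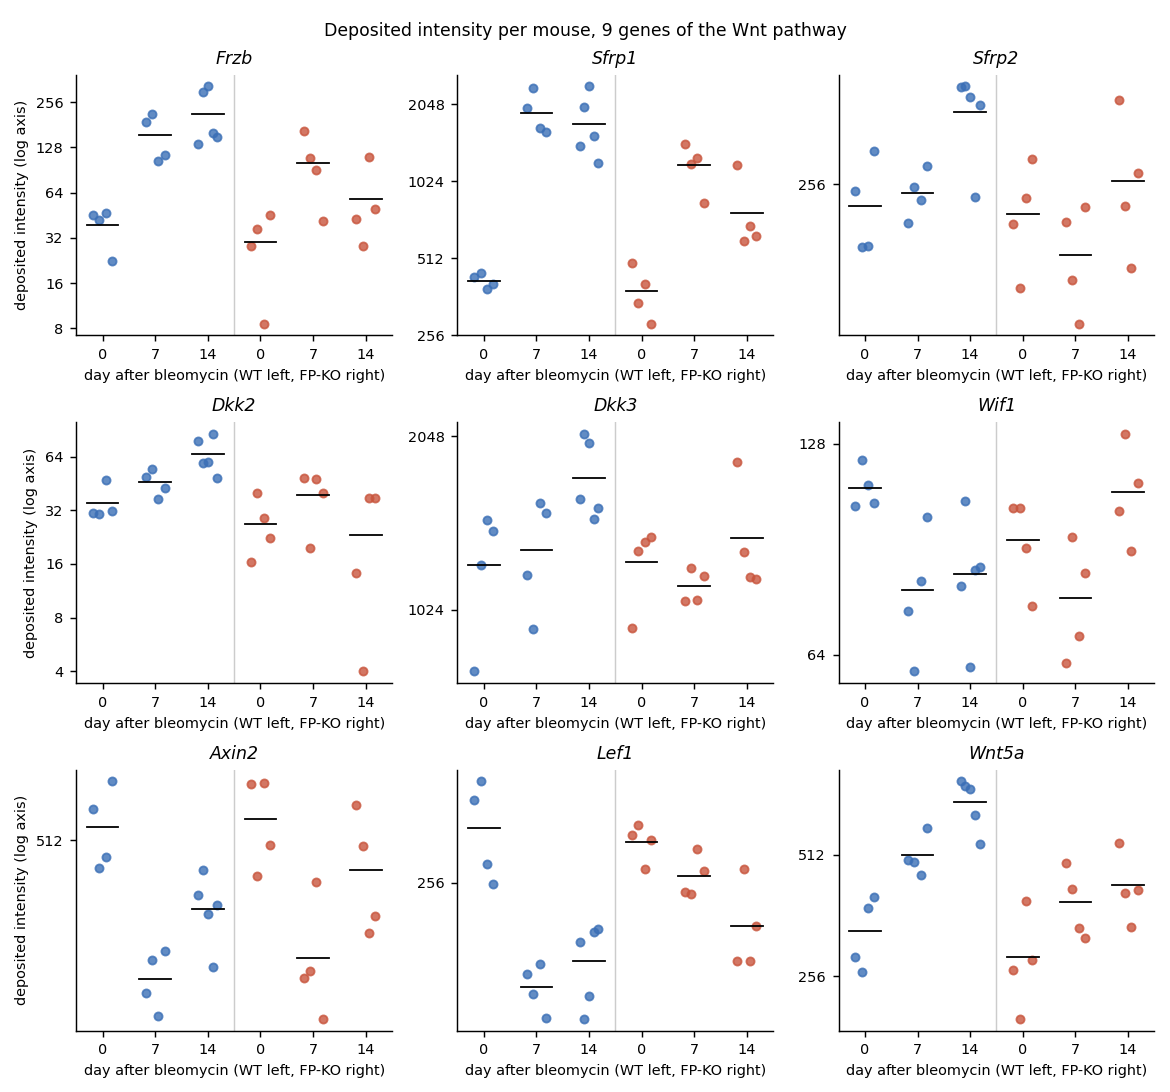
Deposited intensity of the highest probe set of each gene (log axis) in every mouse, by day after bleomycin, with WT in blue at the left and FP-KO in red at the right of each panel. Points are mice and the bar is the group mean. The WT Day 14 lungs read 135.7 to 326.1 for Frzb, above all 4 FP-KO Day 14 lungs, whose highest was 111.3.

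Frzb was low on Day 0 and higher on Day 7 and Day 14 in WT lungs, and on Day 14 it was 4.06 times lower in FP-KO than in WT lungs. On its brighter probe set (1416658_at) the WT lungs read 45.6, 41.8, 46.9 and 22.4 on Day 0. They read 187.6, 212.1, 103.4 and 113.1 on Day 7, and 135.7, 301.5, 326.1, 159.7 and 149.7 on Day 14. Every WT lung of Day 7 and Day 14 lay above every WT lung of Day 0, while the Day 7 and Day 14 values overlapped. The FP-KO lungs read 28.4, 36.9, 8.6 and 45.5 on Day 0, 163.8, 108.3, 90.2 and 41.4 on Day 7, and 42.8, 28.4, 111.3 and 49.5 on Day 14. The FP-KO lungs No. 1, 2 and 3 of Day 7 were thus higher than any FP-KO lung of Day 0. Among the FP-KO lungs of Day 14, which came from other mice, No. 3 alone stood well clear of the Day 0 range.

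In WT the log2 difference of Frzb from Day 0 was 1.92 ± 0.42 (SE, n = 4 and 4) on Day 7 and 2.34 ± 0.40 (n = 5 and 4) on Day 14. In FP-KO it was 1.55 ± 0.42 on Day 7 and 0.64 ± 0.42 on Day 14. The FP-KO lungs differed from WT by -0.31 ± 0.42 on Day 0 and by -0.69 ± 0.42 on Day 7, with overlapping groups on both days. On Day 14 the difference was -2.02 ± 0.40, and the groups did not overlap. The change from Day 0 to Day 14 differed between genotypes by -1.71 ± 0.58. In order of mean level the groups ran WT Day 14, WT Day 7, FP-KO Day 7, FP-KO Day 14, WT Day 0 and FP-KO Day 0, and each group overlapped its neighbour in that order.

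The Day 14 difference in Frzb was not of one size in both sets of arrays. Among WT mice No. 1 to 3 and FP-KO mice No. 1 and 2 it was -2.81, and among WT mice No. 4 and 5 and FP-KO mice No. 3 and 4 it was -1.11. Without FP-KO mouse No. 2 it was -1.71. The change from Day 0 was 2.58 and 1.99 in WT in the first and the second set, and 0.08 and 1.20 in FP-KO. All 8 Day 0 lungs lay below their array's median for Frzb, where the intensity floor of 24.3 units sets part of the difference. So did all 4 FP-KO lungs of Day 14, 3 of 4 FP-KO lungs of Day 7 and 2 of 4 WT lungs of Day 7. No WT lung of Day 14 did, so the Day 14 difference sets a group at low signal against WT. With a higher floor, at the 40th percentile of all values, the WT change was 0.94 on Day 7 and 1.37 on Day 14, and the Day 14 difference between genotypes was -1.24.

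The second probe set for Frzb (1448424_at) was dimmer and had the same order of groups in WT. It read 3.0 to 23.9 on Day 0, 57.9 to 87.3 on Day 7 and 48.6 to 205.6 on Day 14 in WT lungs. The FP-KO lungs read 12.3 to 30.5, 8.5 to 60.0 and 28.9 to 47.1 on those days. On Day 14 its log2 difference between FP-KO and WT was -1.56 ± 0.35. All 4 FP-KO lungs lay below 48.6 units, the lowest WT value, but the groups overlapped after normalization.

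The 250 bases before the start of Frzb and of 5 other genes of the 9 were read from RefSeq promoters (GRCm38.p6) and searched for the core of the Tcf/Lef binding motif, CTTTGA, on both strands, since Lef1 and beta-catenin act through it. Frzb held 1 copy, on the other strand as TCAAAG, 95 bases before its start. Lef1, which has 4 listed starts, held 2 copies before the most downstream of them, 180 and 120 bases away. No copy stood in these windows of Sfrp2, Dkk2, Wif1, Axin2 or the other starts of Lef1. Of all 32851 RefSeq windows of this length, 13.8% held the motif. The windows of Frzb and Lef1 with a copy, and that of Axin2 as the target gene without one, are shown 5′ to 3′ on the gene's strand, with the motif in capitals. They lie at chr2:80447397-80447646 on the minus strand (Frzb), chr3:131156044-131156293 on the plus strand (Lef1) and chr11:108920099-108920348 on the plus strand (Axin2).
Frzb: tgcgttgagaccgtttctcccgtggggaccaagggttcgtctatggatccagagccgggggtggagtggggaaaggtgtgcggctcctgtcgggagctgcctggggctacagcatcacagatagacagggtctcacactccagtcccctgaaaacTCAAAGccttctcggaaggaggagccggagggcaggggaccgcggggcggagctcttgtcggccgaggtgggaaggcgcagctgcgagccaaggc
Lef1: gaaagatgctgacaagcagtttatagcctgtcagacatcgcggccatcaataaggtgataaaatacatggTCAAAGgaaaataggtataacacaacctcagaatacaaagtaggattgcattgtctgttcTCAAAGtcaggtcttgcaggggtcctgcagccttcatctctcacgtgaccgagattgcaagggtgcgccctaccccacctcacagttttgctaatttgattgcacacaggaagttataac
Axin2: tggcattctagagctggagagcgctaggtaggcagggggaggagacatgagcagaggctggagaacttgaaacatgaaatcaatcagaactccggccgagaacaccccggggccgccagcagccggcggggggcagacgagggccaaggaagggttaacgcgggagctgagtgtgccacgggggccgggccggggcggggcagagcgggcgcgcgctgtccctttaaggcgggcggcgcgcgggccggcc
A match of letters is a description of the window, and binding was not measured here.

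Sfrp1, which like Frzb binds Wnt ligands through a Frizzled-like domain, was also higher than on Day 0 in WT lungs of Day 7 and Day 14, and lower in FP-KO than in WT on both days. Its highest probe set (1428136_at) read 433.7, 446.9, 389.3 and 407.5 in WT on Day 0. It read 1970.9, 2371.9, 1652.2 and 1598.5 on Day 7 and 1410.8, 1994.8, 2401.4, 1531.5 and 1210.2 on Day 14. In FP-KO it read 492.4, 342.1, 408.0 and 284.7 on Day 0, 1432.0, 1199.6, 1263.0 and 841.0 on Day 7, and 1179.8, 598.7, 684.9 and 627.7 on Day 14. Both genotypes were higher than their Day 0 in every lung, and in FP-KO the lungs of Day 14, other than No. 1, lay below all lungs of Day 7.

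The log2 difference of Sfrp1 from Day 0 was 2.16 ± 0.23 on Day 7 and 1.98 ± 0.22 on Day 14 in WT, and 1.68 ± 0.23 and 0.98 ± 0.23 in FP-KO. FP-KO lungs differed from WT by -0.19 ± 0.23 on Day 0, -0.66 ± 0.23 on Day 7 and -1.18 ± 0.22 on Day 14. The genotypes did not overlap on Day 7 or Day 14, though FP-KO mouse No. 1, at 1179.8, came close to WT mouse No. 5, at 1210.2. The Day 14 value was -1.21 and -1.05 within the 2 sets of arrays, and -1.06 without FP-KO mouse No. 2. The change from Day 0 to Day 14 differed between genotypes by -0.99 ± 0.32. All 5 probe sets of Sfrp1 had the same direction in these comparisons, except that 1 (1438620_x_at) differed by 0.15 ± 0.27 between genotypes on Day 0. Their Day 14 differences between genotypes ran from -1.58 to -1.02, and their WT changes on Day 14 from 1.67 to 3.43.

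The other secreted inhibitors differed less or lay at low signal. Sfrp2 read 210.4 to 283.9 in WT on Day 0, 226.9 to 271.6 on Day 7 and 246.3 to 347.9 on Day 14. In FP-KO the ranges were 185.5 to 277.2, 165.7 to 238.9 and 197.2 to 333.7. Its FP-KO lungs were lower than WT by a log2 difference of -0.27 ± 0.16 on Day 7, where the normalized groups did not overlap although the deposited values did, and by -0.35 ± 0.15 on Day 14, where they overlapped. In WT the change by Day 14 was 0.41 ± 0.15. Within the 2 sets of arrays that change was 0.49 and 0.29, and the Day 14 difference between genotypes was -0.31 and -0.36.

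Dkk3, a secreted member of the Dickkopf family whose action on Wnt signalling is not settled, read 801.5 to 1465.4 in WT on Day 0 and 1468.9 to 2066.2 on Day 14 on its brighter probe set (1417312_at). The WT change was 0.52 ± 0.18 on Day 14, and FP-KO differed from WT by -0.35 ± 0.18 on that day. Within the 2 sets these were 0.65 and 0.33, and -0.28 and -0.36. Its other probe set (1448669_at), of like signal, gave 0.07 ± 0.09 and -0.06 ± 0.09 in these comparisons, so the 2 probe sets disagree on the size.

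Dkk2 was below the array median in all 25 lungs and was not among the genes tested. On Day 14 it read 78.9, 59.1, 59.9, 85.9 and 48.5 in WT and 14.2, 4.0, 37.3 and 37.4 in FP-KO. No FP-KO lung reached the lowest WT lung, and the log2 difference was -1.20 ± 0.22. Within the 2 sets of arrays it was -1.56 and -0.80. At this signal the value depends on the floor. It was -2.05 with a floor at the 5th percentile and -0.07 with one at the 40th. The WT change by Day 14 was 0.97 ± 0.22 and that in FP-KO 0.09 ± 0.23.

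Wif1, like Dkk2, was not tested and lay near or below the array median, at 60.7 to 121.1 units in WT and 62.3 to 132.1 in FP-KO. Its FP-KO lungs differed from WT by -0.33 ± 0.20 on Day 0, -0.01 ± 0.20 on Day 7 and 0.30 ± 0.19 on Day 14. The groups overlapped throughout, and the Day 14 value was 0.40 and 0.22 within the 2 sets of arrays.

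**Figure D2:**
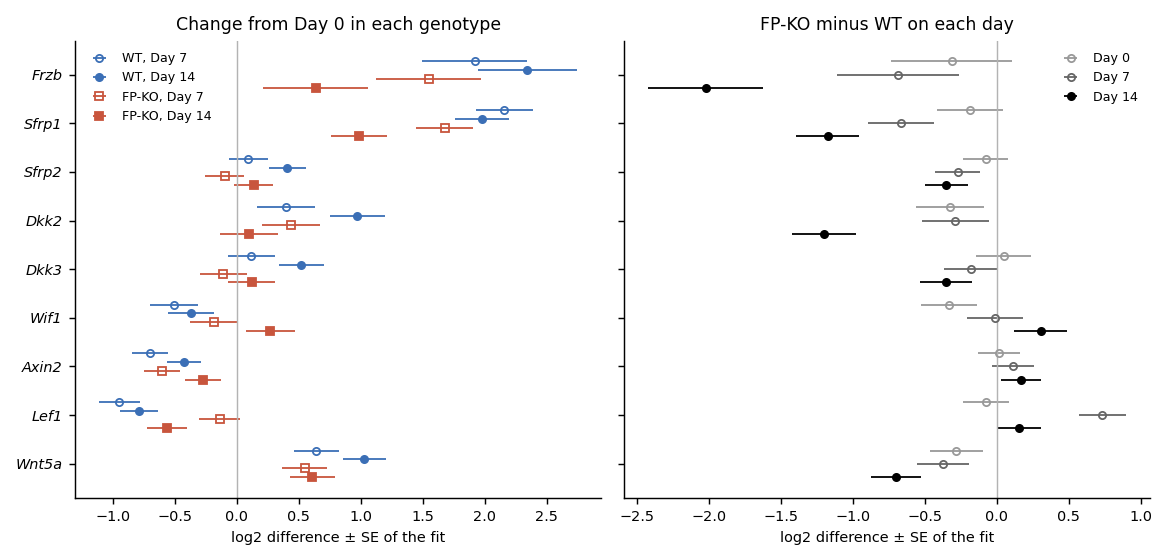
Log2 difference ± SE of the fit for the 9 genes (rows), as change from Day 0 in each genotype (left; open symbols Day 7, filled Day 14; WT blue circles, FP-KO red squares) and as FP-KO minus WT on each day (right). Day 14 differences between genotypes reach -2.02 for Frzb and -1.18 for Sfrp1, and Lef1 stands at 0.73 on Day 7.

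Axin2 and Lef1, which report on or act with beta-catenin, were lower in WT on Day 7 and Day 14 than on Day 0 on their brighter probe sets, while in FP-KO the normalized groups overlapped for Axin2 on both days and for Lef1 on Day 7. Axin2 (1436845_at) read 566.1, 468.4, 485.2 and 619.5 in WT on Day 0, 311.3, 346.9, 289.2 and 357.4 on Day 7, and 428.0, 464.7, 402.7, 339.1 and 415.2 on Day 14. The Day 7 and Day 14 lungs all lay below the Day 0 lungs. In FP-KO it read 615.2, 455.5, 615.7 and 504.3 on Day 0, 327.0, 334.7, 447.5 and 286.8 on Day 7, and 573.6, 502.5, 379.1 and 400.9 on Day 14. There the Day 7 lungs also read lower than the Day 0 lungs in the deposited values, but after normalization the groups overlapped, and on Day 14 they overlapped on both scales.

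The log2 difference of Axin2 from Day 0 was -0.70 ± 0.15 on Day 7 and -0.43 ± 0.14 on Day 14 in WT, and -0.60 ± 0.15 and -0.27 ± 0.15 in FP-KO. Between genotypes it was 0.01 ± 0.15, 0.11 ± 0.15 and 0.17 ± 0.14 on Days 0, 7 and 14, with overlap on each day. A dimmer probe set of Axin2 (1421341_at), below the array median in every lung, had a WT change of 0.78 ± 0.39 on Day 14, of opposite sign. With the mean of both probe sets the WT change on Day 14 was 0.18. Within the 2 sets of arrays the change of the brighter probe set was -0.38 and -0.50 in WT and -0.07 and -0.47 in FP-KO.

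Lef1 was higher in FP-KO than in WT on Day 7 on its brighter probe set, and not on the other. On the brighter probe set (1454734_at) the WT lungs read 367.6, 398.3, 278.2 and 254.9 on Day 0, 172.0, 157.6, 180.3 and 142.3 on Day 7, and 197.7, 141.8, 156.4, 206.9 and 209.7 on Day 14. The FP-KO lungs read 315.5, 329.0, 271.6 and 308.5 on Day 0, 246.2, 243.6, 297.1 and 270.3 on Day 7, and 182.0, 272.1, 182.1 and 211.9 on Day 14. On Day 7 all 4 FP-KO lungs were above all 4 WT lungs, and on Day 14 the genotypes overlapped.

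The change of Lef1 from Day 0 was -0.95 ± 0.16 on Day 7 and -0.79 ± 0.15 on Day 14 in WT. In FP-KO it was -0.14 ± 0.16 on Day 7 and -0.56 ± 0.16 on Day 14. FP-KO differed from WT by 0.73 ± 0.16 on Day 7 and by 0.15 ± 0.15 on Day 14, the latter being 0.36 and -0.12 within the 2 sets of arrays. The change from Day 0 to Day 7 differed between genotypes by 0.81 ± 0.23, or by 0.37 with the mean of both probe sets, and at Day 7 this interaction passed for 0 of all 12062 genes tested (limma, adjusted p, with 765 at an unadjusted p under 0.05). The dimmer probe set (1421299_a_at), below the array median in every lung, gave -0.17 ± 0.29 for the genotypes on Day 7 and a WT change of 0.18 on Day 14, and with the mean of both probe sets the Day 7 difference was 0.28. T cells also express Lef1, and 9 of 12 T cell markers were measured. Their summed intensity ran from 1932 to 2386 in WT and from 2607 to 3097 in FP-KO on Day 7, against 2345 to 2743 and 2470 to 3220 on Day 0 and 1848 to 2156 and 1685 to 2220 on Day 14. No T cell marker was at 0 in any lung, Cd4 was below the array median in all 25 lungs, and none of the 8 tested passed between genotypes on Day 7 (limma, adjusted p). Only 0.0166% of all genes passed in that comparison, so this count cannot tell whether T cell content differed. The median log2 difference of the 8 markers was 0.47. The part of T cells in the Lef1 values was not tested. In whole lung, fewer cells of a type and less RNA per cell cannot be told apart.

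Wnt5a, the ligand of the group, was higher in WT on Day 7 and Day 14 than on Day 0. Its highest probe set (1436791_at) read 286.2, 261.7, 377.2 and 402.2 in WT on Day 0, 497.5, 491.3, 456.9 and 594.8 on Day 7, and 777.5, 757.9, 743.0, 642.4 and 543.7 on Day 14. The WT groups of Day 7 and Day 14 did not overlap that of Day 0. In FP-KO it read 265.7, 200.8, 394.1 and 280.6 on Day 0, 488.5, 421.3, 336.0 and 317.9 on Day 7, and 547.9, 412.5, 339.0 and 418.5 on Day 14, and both later groups overlapped Day 0.

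The change of Wnt5a from Day 0 was 0.64 ± 0.18 and 1.03 ± 0.17 in WT and 0.55 ± 0.18 and 0.61 ± 0.18 in FP-KO, on Day 7 and Day 14. FP-KO differed from WT by -0.28 ± 0.18, -0.37 ± 0.18 and -0.70 ± 0.17 on Days 0, 7 and 14. On Day 14 the normalized groups did not overlap, while in the deposited values FP-KO mouse No. 1, at 547.9, lay just above WT mouse No. 5, at 543.7. The Day 14 value was -0.69 and -0.65 within the 2 sets of arrays, where the WT change was 1.15 and 0.85. Of the 3 other probe sets, 2 had Day 14 differences between genotypes of -0.57 ± 0.25 and -0.53 ± 0.14, and the dimmest, below the array median in every lung, had -0.06 ± 0.30. In that order their FP-KO changes from Day 0 were 0.12, 0.24 and -0.02 on Day 7. On Day 14 these were 0.27 ± 0.26, 0.02 ± 0.14 and 0.30 ± 0.32, smaller than on the highest probe set. Their WT changes on Day 14 were 1.22, 0.50 and 0.08.

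**Figure D3:**
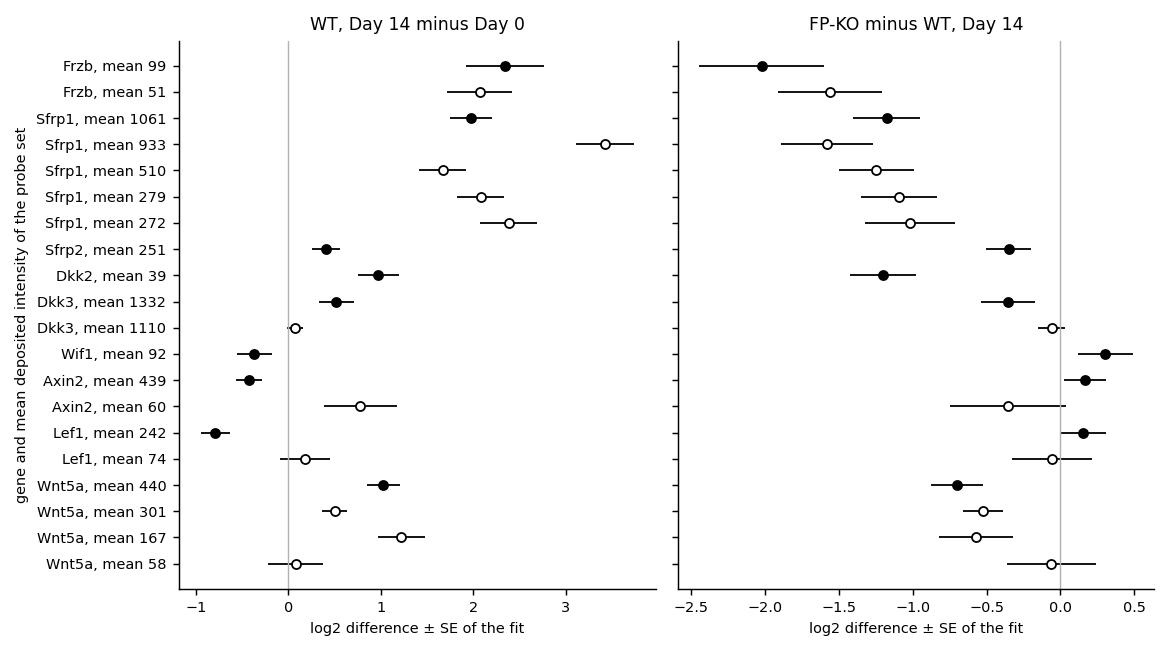
Log2 difference ± SE of the fit for all 20 probe sets of the 9 genes (rows, with the mean deposited intensity of each), as Day 14 minus Day 0 in WT (left) and FP-KO minus WT on Day 14 (right). Filled circles are the highest probe set of each gene. All 5 probe sets of Sfrp1 and both of Frzb lie on the same side of 0, and the dim probe sets of Axin2 and Lef1 lie on the other side of 0 from the brighter ones.

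Of the 9 genes, 7 passed the filter on low signal, Dkk2 and Wif1 being the others. Groups did not overlap for 5 of the 7 in WT on Day 7, as for 35.0% of all genes, and for 5 in WT on Day 14 (28.5%). In FP-KO this held for 1 on Day 7 (26.5%) and 2 on Day 14 (9.87%). Between genotypes it held for none on Day 0 (2.11%), for 3 on Day 7 (5.41%) and for 3 on Day 14 (11.0%). Because the 9 genes were picked on these contrasts, nothing is read from these counts. The genotype comparisons at each day and the changes from Day 0 share their arrays.

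The other genes of the pathway, 103 in 8 lists by role, were set beside these 9, and 70 of the 101 measured passed the filter on low signal. Changes were called at an adjusted p under 0.05 over all 12062 genes tested (limma, Benjamini-Hochberg). In WT, 27 of the 70 changed on Day 7 (10 rose and 17 fell, median -0.16) and 23 on Day 14 (10 rose and 13 fell, median -0.02), against 35.1% and 38.7% of all genes and medians of -0.01 in both. In FP-KO 18 changed on Day 7 (5 rose and 13 fell, median -0.15, all genes 0.00), against 23.3% of all genes, and 1 rose on Day 14 (median 0.00, all genes 0.01), against 3.26%. The split of rises and falls depended on the scaling. With array medians set equal, 6 rose and 5 fell in FP-KO on Day 7, and 13 rose and 11 fell in WT on Day 14. Without FP-KO mouse No. 1 of Day 7, 10 rather than 18 passed on that day, and without FP-KO mouse No. 1 of Day 0, 11. On Day 14 in FP-KO, 11 had an unadjusted p under 0.05, and 17 passed when FP-KO No. 1 and 2 alone stood for that group, against 0 with No. 3 and 4. All p-values that follow are from limma, adjusted over 12062 genes.

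Among 8 tested Wnt ligands, Wnt7b, which is made by lung epithelium, rose in WT by 0.90 ± 0.22 on Day 7 (adjusted p = 0.00305) and by 1.08 ± 0.21 on Day 14 (adjusted p = 0.000363). Its deposited mean was 185.1 ± 48.8 (SD, n = 4) on Day 0 and 392.2 ± 38.4 (n = 5) on Day 14. Wnt3a, a ligand that signals through beta-catenin, fell by 0.76 on Day 7 (adjusted p = 0.000365), and Wnt2, expressed in lung mesenchyme, fell by 0.70 on Day 14 (adjusted p = 0.00876). In FP-KO none of the 8 passed on Day 7 or Day 14 (23.3% and 3.26% of all genes did), with 0 at an unadjusted p under 0.05 on Day 7 and 1 on Day 14. Porcn, the enzyme that acylates Wnt ligands for secretion, rose in WT on Day 14 (0.53 ± 0.14, adjusted p = 0.00543). Within the second set of Day 14 arrays Porcn was at 0.19 (adjusted p = 0.384) and Wnt2 at -0.58 (adjusted p = 0.157), so both calls were lost there.

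Receptors and co-receptors moved both ways. Of 15 tested, 2 rose and 5 fell in WT on Day 7 (35.1% of all genes passed), and 2 rose and 2 fell on Day 14 (38.7%). The receptor Fzd1 rose by 0.77 ± 0.12 and 0.74 ± 0.11 on these days (adjusted p = 2.87e-05 and 2.3e-05). Fzd4, a receptor abundant in endothelium, fell by 0.64 and 0.59 (adjusted p = 0.00109 and 0.00134), and Fzd7 fell by 0.83 on Day 7 (adjusted p = 4.31e-05). The co-receptor Ptk7 rose by 0.95 ± 0.20 on Day 14 (adjusted p = 0.000927). In FP-KO 1 rose and 4 fell on Day 7 (23.3% of all genes passed), with Fzd7 at -0.57 ± 0.13 (adjusted p = 0.00351), Fzd8 at -0.45 ± 0.15 (adjusted p = 0.0337) and Fzd4 at -0.42 ± 0.14 (adjusted p = 0.0306). None of the 15 passed in FP-KO on Day 14 (3.26% of all genes did), with 2 at an unadjusted p under 0.05. The FP-KO calls of Fzd8 and Fzd4 were lost without any 1 of 5 and 6 of the 8 mice and with equal array medians (adjusted p = 0.0772 and 0.151), and those of Fzd7 and Fzd4 with the mean of probe sets (0.0632 and 0.206). Within the second set of Day 14 arrays the WT values of Ptk7 and Fzd4 were 0.47 and -0.40 (adjusted p = 0.077 and 0.0847).

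The secreted or surface inhibitors outside the 9 genes gave 6 tested genes. Igfbp4, a binding protein of insulin-like growth factors that also binds Frizzled and Lrp6, rose in WT by 0.61 ± 0.15 on Day 7 and 0.76 ± 0.14 on Day 14 (adjusted p = 0.00286 and 0.000238). Sfrp4, a relative of Frzb and Sfrp1, rose on Day 7 by 0.53 ± 0.15 in WT and 0.46 ± 0.15 in FP-KO (adjusted p = 0.00794 and 0.0274). Notum, an enzyme that inactivates Wnt ligands, fell on Day 7 by 0.55 in WT and 0.48 in FP-KO (adjusted p = 0.0111 and 0.0355). Kremen1, a receptor for Dickkopf proteins, and Tmem88, which binds Dishevelled, rose in WT on Day 14 by 0.46 ± 0.17 and 0.33 ± 0.13 (adjusted p = 0.036 and 0.0411). These 2 calls were lost without any 1 of 4 and 5 of the 9 mice, and the FP-KO calls of Sfrp4 and Notum without any 1 of 4 of the 8. Kremen1 was at 0.24 within the second set of Day 14 arrays (adjusted p = 0.415) and Tmem88 at 0.16 within the first (adjusted p = 0.271). Tmem88 also lost its call with mouse number as a fixed block (0.28, adjusted p = 0.0653) and with array weights (0.19, adjusted p = 0.151). In FP-KO Notum lost its call with equal array medians (adjusted p = 0.0672), and Sfrp4 without quantile normalization (adjusted p = 0.0555).

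The R-spondin axis, in which R-spondins keep Frizzled receptors at the cell surface by holding off the ligases Rnf43 and Znrf3, had 3 of 5 tested genes fall in WT on both days and none rise (35.1% and 38.7% of all genes passed). Rspo1 fell by 0.86 and 0.80 on Day 7 and Day 14 (adjusted p = 0.000812 and 0.000916), Znrf3 by 0.55 and 0.68 (adjusted p = 0.000981 and 6.91e-05), and Rnf43 by 1.08 and 0.59 (adjusted p = 0.000812 and 0.0356). In deposited units Rspo1 was 391.0 ± 47.2 (SD, n = 4) in WT on Day 0 and 227.0 ± 26.7 (n = 5) on Day 14. In FP-KO Rnf43 and Rspo1 fell on Day 7 by 0.91 and 0.53 (adjusted p = 0.00649 and 0.0374). None of the 5 passed in FP-KO on Day 14 (3.26% of all genes did), with 0 at an unadjusted p under 0.05. In FP-KO Rspo1 read 299.95 ± 30.1 (n = 4) on Day 0 and 323.6 ± 105.3 (n = 4) on Day 14. The calls of Rnf43 in WT on Day 14 and of Rspo1 in FP-KO on Day 7 were lost without any 1 of 6 mice, and with mouse number as a fixed block (adjusted p = 0.0952 and 0.0539). Rnf43 passed within neither set of Day 14 arrays (-0.48 and -0.75, adjusted p = 0.119 and 0.0701). With the mean of all its probe sets Znrf3 was at -0.04 on Day 7 and -0.31 on Day 14 in WT (adjusted p = 0.886 and 0.169).

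Among 15 cytoplasmic transducers none rose in WT, and 3 fell on Day 7 and 4 on Day 14. That is 20% and 26.7% of them, beside 35.1% and 38.7% of all genes that passed in either direction. Nkd1, a feedback inhibitor that binds Dishevelled and is induced by Wnt signalling, fell by 0.65 and 0.81 (adjusted p = 0.000253 and 1.11e-05), and Dvl1, a Dishevelled protein, fell by 0.35 and 0.57 (adjusted p = 0.0239 and 0.00036). Nkd2 fell by 0.43 on Day 7 (adjusted p = 0.0282), and the kinase Csnk1e fell by 0.61 on Day 14 (adjusted p = 0.0076). In FP-KO 4 fell on Day 7 (23.3% of all genes passed), among them Gsk3a, a kinase of the destruction complex (by 0.51, adjusted p = 0.0464), Nkd1 (by 0.51, adjusted p = 0.00437) and Tnks2, which marks axin for degradation (by 0.44, adjusted p = 0.0148). The Day 7 calls of Nkd2 and Dvl1 in WT, and of Gsk3a and Tnks2 in FP-KO, were lost without any 1 of 4, 4, 5 and 2 of the 8 mice. That of Gsk3a was also lost with mouse number as a fixed or a random block (adjusted p = 0.0578 and 0.0509) and with equal array medians (0.0923). Equal array medians ended the call of Tnks2 too (0.144). With the mean of probe sets Nkd2 in WT was at -0.30 (adjusted p = 0.147), and Nkd1 and Tnks2 in FP-KO at -0.32 and -0.18 (0.0778 and 0.263). Csnk1e was at -0.17 within the second set of Day 14 arrays (adjusted p = 0.419).

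Of 13 nuclear factors, 1 rose and 3 fell in WT on Day 7 (35.1% of all genes passed), and 1 rose and 2 fell on Day 14 (38.7%). Ctnnbip1, an inhibitor that keeps beta-catenin from Tcf proteins, rose by 0.58 ± 0.17 and 0.69 ± 0.16 (adjusted p = 0.011 and 0.00198). The co-repressors Tle2 and Tle4 fell by 0.53 and 0.41 on Day 7 (adjusted p = 0.0471 and 0.0278), and Tle1 and Tcf7l1 fell by 0.64 and 0.56 on Day 14 (adjusted p = 0.00718 and 0.00375). In FP-KO Bcl9, a beta-catenin cofactor, fell on Day 7 by 0.66 (adjusted p = 0.011). Its deposited mean in FP-KO was 540.55 ± 83.3 (SD, n = 4) on Day 0 and 333.8 ± 88.3 (n = 4) on Day 7. In WT it was 339.2 ± 51.6 and 278.7 ± 38.1 (n = 4 each), so the FP-KO fall began from a higher Day 0 level. The calls of Tle2 and Tle4 were lost without any 1 of 6 and 5 of the 8 mice, that of Tle2 with mouse number as a fixed block (adjusted p = 0.0651), and that of Tle4 with the mean of probe sets (-0.01, adjusted p = 0.949). Equal array medians ended both calls (adjusted p = 0.0516 and 0.0613). Tle2 was also lost without quantile normalization (0.0949) and without the filter on low signal (0.0777). Within the second set of Day 14 arrays Tle1, Tcf7l1 and Ctnnbip1 were at -0.37, -0.19 and 0.52 (adjusted p = 0.246, 0.296 and 0.0634). With the mean of probe sets Tcf7l1 was at -0.22 (adjusted p = 0.158).

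Within the list of common target genes the changes went both ways. Of 6 tested in that list, 3 rose and 1 fell in WT on Day 7 (35.1% of all genes passed), and 2 rose and 1 fell on Day 14 (38.7%). The list leaves out Axin2 and Nkd1, described above as a target gene and as induced by Wnt signalling. In WT on Day 7 these stood at -0.70 (brighter probe set) and -0.65, so nothing is read from the list about target genes at large. Ccn4, also called Wisp1, a matricellular protein, rose by 1.55 ± 0.25 and 1.73 ± 0.24 (adjusted p = 5.2e-05 and 7.35e-06), and Myc rose by 1.35 ± 0.17 and 1.13 ± 0.16 (adjusted p = 2.89e-06 and 1.12e-05). Bambi, a decoy receptor of the TGF-beta family, fell by 0.94 and 0.86 (adjusted p = 1.24e-05 and 1.89e-05). In FP-KO on Day 7, Myc rose by 1.47 ± 0.17, Ccn4 rose by 1.04 ± 0.25 and Bambi fell by 0.51 (adjusted p = 6.4e-06, 0.0046 and 0.00909). Myc, at 0.70 ± 0.17 (adjusted p = 0.0247), was the gene that passed in FP-KO on Day 14, and its call was lost without FP-KO mouse No. 1 or 4 of Day 0 or No. 1 or 3 of Day 14, and within the second set (0.69, adjusted p = 0.107).

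**Figure D4:**
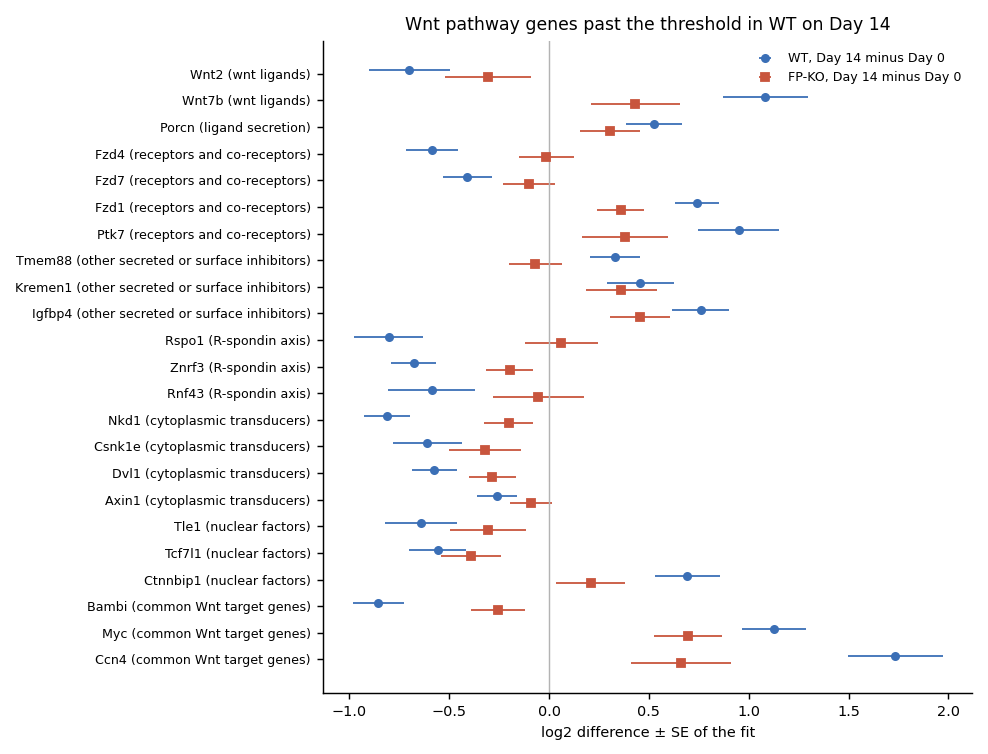
Log2 change from Day 0 to Day 14 ± SE of the fit for the 23 Wnt pathway genes that passed in WT (rows, with the role of each in brackets), in WT (blue circles) and FP-KO (red squares). Ccn4 stood at 1.73 in WT and 0.66 in FP-KO, and Nkd1 at -0.81 and -0.20.

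Between genotypes none of the 70 other pathway genes passed on Day 0 or Day 7 (limma, with 3 and 8 at an unadjusted p under 0.05, beside 0.0166% of all genes on each day). On Day 14, 8 passed, 3 higher and 5 lower in FP-KO (median 0.06, all genes -0.0022), which is 11.4% beside 10.5% of all genes. Ccn4 was lower by a log2 difference of -1.18 ± 0.24 (adjusted p = 0.00419), at 213.8 ± 69.9 units in FP-KO (SD, n = 4) and 471.5 ± 104.4 in WT (n = 5). Wls, which carries Wnt ligands to the cell surface, was lower by -0.34 ± 0.09 (adjusted p = 0.0175). Fzd4 was higher by 0.58 ± 0.13 (adjusted p = 0.00812), Bambi by 0.56 ± 0.13 (adjusted p = 0.0082) and Nkd1 by 0.49 ± 0.12 (adjusted p = 0.00908). Without FP-KO mouse No. 2, 3 passed instead of 8, Fzd4 and Wls no longer among them, and without WT mouse No. 2 or No. 3, 5 passed. Within the second set none passed, where 2 of all 12062 genes did, and within the first 10 passed. In the first and the second set Ccn4 was at -1.04 and -1.24, Wls at -0.51 and -0.20, Fzd4 at 0.78 and 0.31, Bambi at 0.67 and 0.41 and Nkd1 at 0.44 and 0.52. Nkd1 passed within neither (adjusted p = 0.0843 and 0.241). With array medians set equal, 1 was higher and 3 were lower in FP-KO, and Fzd4, Nkd1 and Wls lost their calls (adjusted p = 0.0604, 0.065 and 0.0594). Wls also lost its call with the mean of probe sets (-0.19, adjusted p = 0.16) and with array weights (-0.19, adjusted p = 0.0745).

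The difference between genotypes in the change from Day 0 passed for 1 of the 70 genes on Day 14 (3.12% of all genes), with 12 at an unadjusted p under 0.05, and for 0 on Day 7 (0% of all genes; limma, 4 of the 70 at an unadjusted p under 0.05). That gene was Nkd1 (0.61 ± 0.17, adjusted p = 0.0477). Its deposited mean was 1396.9 ± 85.0 (SD, n = 4) on Day 0 and 805.8 ± 51.8 (n = 5) on Day 14 in WT, and 1276.0 ± 107.9 and 1132.4 ± 154.3 (n = 4 each) in FP-KO. For Rspo1 and Ccn4 the interaction was 0.86 ± 0.25 (adjusted p = 0.0596) and -1.07 ± 0.34 (adjusted p = 0.0805), neither past the threshold. Between genotypes Rspo1 differed by -0.42 on Day 0 and by 0.44 on Day 14, so its interaction holds a Day 0 part. Ccn4 differed by -0.10 and -1.18 on these days. The call of Nkd1 was lost in 15 of the 17 fits that left out 1 mouse, with equal array medians (adjusted p = 0.116), without the filter on low signal (0.069), with the mean of probe sets (0.0844) and within the first and the second set (0.108 and 0.254). In these fits other than those that left out a mouse its value was 0.55 to 0.63.

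The genes whose values over the 25 lungs were most like those of Frzb were Cthrc1 (Pearson r = 0.935), Mest (0.927), Tmem37 (0.925), Thbs4 (0.923), Tgm1 (0.922) and Nrcam (0.909). Cthrc1 and Thbs4 encode secreted proteins of the matrix, Mest is an imprinted gene, Tgm1 a transglutaminase and Nrcam a cell adhesion protein. These values share the day and genotype of each lung. With group means removed, r ran from 0.664 for Tgm1 to 0.769 for Nrcam. The genes were picked on values that include these deviations from group means, so this is a description and not a check. The deviations also hold the split of the Day 14 arrays into 2 sets. Thbs4 was higher in WT by 3.21 on Day 7 and 3.19 on Day 14 and differed between genotypes by -2.10 on Day 14, and Cthrc1 was higher by 1.06 and 1.43 and differed by -1.24. Among the other genes followed here r with Frzb was 0.872 for Sfrp1, 0.737 for Wnt5a, 0.368 for Sfrp2, 0.289 for Dkk3, -0.611 for Axin2 and -0.630 for Lef1. With group means removed it was 0.484 for Sfrp1 and 0.061 for Wnt5a.

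Markers of cells that could carry these transcripts were read beside them. The airway cartilage list (8 genes), since Frzb is known from cartilage, was below the array median in every lung, with summed intensities of 223.0 to 382.2. Markers of resident lung fibroblasts had 5 of 9 fall and 1 rise in WT on Day 7, 6 fall and 2 rise on Day 14, and 5 fall and 1 rise in FP-KO on Day 7 (35.1%, 38.7% and 23.3% of all genes passed). Their summed intensity on Day 14 was 48381 to 60422 in WT and 71182 to 86220 in FP-KO, where 3 of 9 were higher than in WT and none lower (10.5% of all genes passed). Smooth muscle markers summed to 17475 to 22788 in WT and 14783 to 21772 in FP-KO on Day 14, and none of 7 tested passed between genotypes. Of 5 mesothelial markers tested, 3 fell and 1 rose in WT on Day 14 (38.7% of all genes passed) and none passed between genotypes. Cardiac muscle markers, which in mice are found in the heart and in the walls of pulmonary veins, fell for 6 of 6 in WT on Day 14 (38.7% of all genes passed), and 5 of 6 were higher in FP-KO than in WT on that day (10.5%). On Day 0 the cardiac markers summed to 21569 to 26461 in WT and 14547 to 21715 in FP-KO. Between genotypes 0 of the 6 passed on that day, with a median log2 difference of -0.52. Only 0.0166% of all genes passed in that comparison, so this count cannot tell whether the cardiac markers differed on Day 0. The part of these cells in the values of Frzb, Sfrp1 and Wnt5a was not tested.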

How the data were processed

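Intensity values of 45101 probe sets on Affymetrix mouse 430 2.0 arrays were deposited by the authors for 25 arrays. The values themselves show a trimmed mean of 500 per array (2% left out at each end); the software and any background correction are not given in the sources used here. Total RNA (6 ug) was labelled with biotin, per the labels' protocols. Groups and mouse numbers came from the sample titles.

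From these, log2 intensities were computed with a floor of 24.3, the 20th percentile of all values. Array medians on the log2 scale differed by up to 0.43, above the limit of 0.3 set for it, so arrays were quantile-normalized. Of the probe sets, 34945 carried 1 symbol; 34741 matched the reference gene table (GRCm38.p6). Controls (64), probe sets listing more than 1 symbol (932) and unnamed ones (9160) stayed out. Each of 18193 genes was read from its probe set of highest mean, and the 12062 that exceeded the median of an array on 4 or more arrays were tested. limma 3.58.1 in R 4.3.3 fitted 6 group means with eBayes and no covariate, with Benjamini-Hochberg adjustment over all genes tested and a threshold of 0.05. The script was tested on simulated data. Figures used python 3.11.15 and matplotlib 3.10.9.

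The members, lists and comparisons were chosen with earlier results of these arrays known. Named pathway genes are up to 3 per role with the largest change among those that passed in each change from Day 0, and up to 5 with the smallest p in each comparison of genotypes; for likeness, the 6 tested genes with the highest r to Frzb, clone-type symbols left out.

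Mouse numbers are shared between groups. Between same-numbered WT and FP-KO mice, deviations from group means had correlations of 0.119 to 0.345 (Day 0) and 0.141 to 0.221 (Day 7), all over 0.1, but -0.308 to 0.437 (Day 14); the pairing comes from these values and not from the labels.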

Additional observations from a re-analysis of the deposited data

Results flagged for a closer look

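The WT Day 0 lung No. 4 read 22.4 units for Frzb, far from the other 3 lungs of its group, which read 41.8 to 46.9. For Sfrp2 the WT Day 14 lung No. 4 read 246.3 against 328.2 to 347.9 in the other 4. After normalization the FP-KO Day 7 lung No. 3 also stood apart for Sfrp2, at 165.7 deposited units against 189.8 to 238.9 in the others. These 3 came out of 54 groups checked with Dixon's test, which chance alone passes in about 1 of 20 groups. For Nkd1 the change from Day 0 to Day 14 differed between genotypes by 0.61 on the log2 scale, the only one of the 70 other pathway genes tested to pass the interaction at Day 14, but this call was lost in 15 of 17 fits that left out 1 mouse and under 5 of 13 other alternatives.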

How the results depend on the processing

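Counts of the other pathway genes that passed stayed within 1.5 times for WT on Day 7 (27) and Day 14 (23) under every alternative run, and leaving out each mouse in turn gave 20 to 27 and 19 to 25. For FP-KO on Day 7 (18) the count was 11 with array medians set equal, and 10 to 18 with a mouse left out. For FP-KO on Day 14 (1) it was 0 with equal medians and with genes above the median in all 25 arrays, 2 with a fixed replicate block and with array weights, 17 and 0 with the first and second set of Day 14 arrays, and 0 to 2 with a mouse left out. For FP-KO against WT on Day 14 (8) it was 4 with equal medians, 5 with genes above the median in all 25 arrays, 19 with array weights, 0 with the second set, and 3 to 11 with a mouse left out. For the interaction at Day 14 (1) it was 0 with equal medians, without the filter and with the second set, 2 with the mean of all probe sets and with a fixed replicate block, 6 with a random replicate block and with array weights, 5 with the first set, and 0 to 3 with a mouse left out. Nkd1 was not among the genes passing with the mean of all probe sets or with the first set. The counts of 0 (FP-KO against WT on Day 0 and Day 7, interaction at Day 7) remained 0 in every alternative and with each mouse left out, replicate block included. Apart from FP-KO on Day 14 and the interaction at Day 14, whose changes are given above, the block changed no count by over 1.5 times. A fixed replicate block ended the calls of Tle2 (WT Day 7, adjusted p = 0.0651), Rnf43 and Tmem88 (WT Day 14, 0.0952 and 0.0653), and Rspo1 and Gsk3a (FP-KO Day 7, 0.0539 and 0.0578), a random one that of Gsk3a (0.0509), and neither ended another named call. Of the 62 changes of named pathway genes, 29 kept their call with every mouse left out and under every alternative in which the gene was tested. Some of these genes, among them Wnt7b, Ccn4 and Myc, were not tested under every alternative and so had no call there. Of the 1256 values obtained, 154 lost the call and 0 turned sign. Not every alternative that ended a call is named above. The causes were not tested, except that fewer genes or mice entered where some were left out. Of 81 differences of the 9 genes, taken over 1620 alternative values, 37 values moved by at least 1 SD, among them those of Frzb and Dkk2 under the floor and those of Axin2, Lef1 and Wnt5a under the mean of probe sets. The number of arrays limits the precision, as does signal below the array median. The latter held for Frzb in all Day 0 and FP-KO Day 14 lungs and in part of the Day 7 lungs. It also held for Dkk2 and, in nearly all lungs, for Wif1.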
